A study of Homo sapiens with 51 samples.

Results

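The comparison was made in KP4, an established human cell line of pancreatic ductal adenocarcinoma (PDA). Cells given the OVOL2 open reading frame together with M2rtTA were set against cells given mCherry together with M2rtTA. The libraries were chosen by their titles alone: 3 of OVOL2 with M2rtTA and 3 of mCherry with M2rtTA, which are 6 of the 51 libraries of the series. The whole series holds 17 groups of 3 libraries from 5 PDA lines, read by PLATE-seq, a method that barcodes the 3′ ends of transcripts well by well and pools them. Lentiviral particles were given at a multiplicity of infection of 2 with 8 µg/ml polybrene, and mCherry, a fluorescent protein, is the open reading frame that OVOL2 is set against. M2rtTA is a transactivator of tetracycline-inducible promoters and was present in both groups. Both groups also received puromycin (2.5 µg/ml) and doxycycline (0.6 µg/ml) on the day after transduction and were kept for 6 days, after which 100 ng of total RNA went into each library. All cells were of 1 line. Per the labels the transductions were done in triplicate, and nothing more says how separate the cultures were. The p-values of this comparison rest on the spread within groups, estimated over all 15 KP4 libraries in 5 groups. That spread may in part be technical.

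OVOL2 is a zinc-finger transcription factor of epithelia that represses genes of the epithelial-mesenchymal transition (EMT), among them ZEB1. EMT is the programme in which epithelial cells lose adhesion and polarity genes and gain intermediate filament, contractile and matrix genes, and many PDA lines lie far along it. Interferons, in contrast, act through receptors and a transcription complex that holds STAT2 and IRF9 and binds a short element in the promoters of antiviral genes. Cytosolic RNA sensors such as those encoded by DDX58 and IFIH1 can start the same programme from inside the cell.

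The 3 libraries with OVOL2 held 3727440 to 5615718 counts and the 3 with mCherry 4120880 to 4973150, and 17095 to 18732 genes had a count in a library. Mitochondrially encoded transcripts made up 23.5% to 26.7% of a library. Levels are given as CPM (counts scaled to the library total in the usual way, with TMM factors) in libraries 1, 2 and 3. Changes are log2 fold changes, OVOL2 minus mCherry, with their standard error (SE), and the adjusted p comes from edgeR's quasi-likelihood test over all genes tested. A gene was called when its adjusted p was under 0.05. Single genes in single libraries carried extreme counts, so the genes concerned are marked throughout as spiked: the highest library of a group of 3 was at least 5 times the next one and had at least 10 counts. Such genes numbered 215 of those tested, and they are described at the end. Among all 25421 symbols, tested or not, a library held 27 to 54 spikes.

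The labelled cell type was checked on marker genes. Keratin 18, a simple-epithelium keratin, stood at 391, 317 and 322 CPM with OVOL2 and 315, 319 and 319 with mCherry, and the 9 ductal markers together summed to 1008 to 1109 CPM against 657 to 686. MUC1 and SOX9 were detected, and CFTR had 1 to 15 counts in a library. The 10 blood cell markers summed to 6.33 to 8.69 CPM with OVOL2 against 3.64 to 4.54, with CD3D at 0 in all 6 libraries. The 6 endothelial markers summed to 4.48 to 8.25 against 4.08 to 6.66 CPM, with TEK at 0, and the 7 acinar and islet markers to at most 1.89 CPM, with CELA3A, CTRB1 and INS at 0. The 10 fibroblast markers summed to 47.4 to 59.2 against 25.1 to 34.3 CPM. COL1A1 was 37.8, 38.2 and 46.3 against 18.4, 8.19 and 12.3 CPM of that sum, and of the 4 fibroblast markers tested 1 rose (COL1A1) and 1 fell (COL3A1). The part of other cell types in the results was not tested.

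OVOL2 itself was low in every library. It stood at 2.22, 10.7 and 2.37 CPM with OVOL2 and at 0.454, 0 and 1.21 with mCherry, which is 84 counts against 8 in all. The groups did not overlap, and library 2 of the OVOL2 group held 62 of the 84 counts. OVOL2 was called higher (log2 fold change 3.08, SE 0.92, adjusted p = 0.0272), while the exact two-sided permutation test on log2(CPM + 1) gave p = 0.1, the smallest that the 20 assignments of 3 against 3 libraries allow. The call did not hold without that library (log2 fold change 1.92, adjusted p = 0.189), nor without mCherry library 1 (adjusted p = 0.084) or 2 (adjusted p = 0.0864). A fit of only the 2 groups gave an adjusted p of 0.0602. The labels do not say whether the transduced transcript carries the 3′ end of OVOL2 that this method reads, so the level of the transgene cannot be told from these counts.

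A large share of the KP4 transcriptome changed with OVOL2 and M2rtTA. Of 13662 genes tested, 3057 were called (22.4%), 1354 of them higher (9.91%) and 1703 lower (12.5%). The groups did not overlap in CPM for 4998 of all genes tested (36.6%) and for 2937 of the called ones. The change was at least 1 on the log2 scale for 758 genes called higher and 731 called lower, and the median change over all genes was 0.01. Epithelial adhesion genes, interferon-response genes, MHC class I genes and lysosomal genes were among those that rose, and mesenchymal, mitotic, glycolytic and ribosomal genes among those that fell. The plot of all genes tested marks the spiked genes among them.

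**Figure D1:**
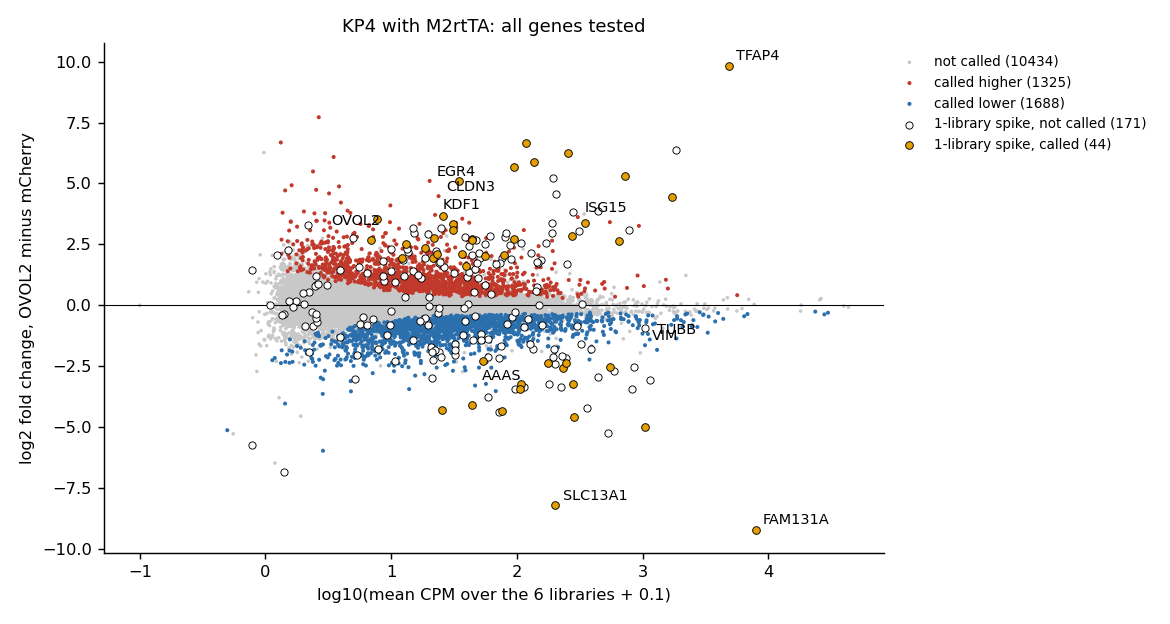
Change of each of the 13662 genes tested against its mean level, in 3 OVOL2 and 3 mCherry libraries of KP4 with M2rtTA. The horizontal axis is log10 of the mean CPM plus 0.1, the vertical axis the log2 fold change; red and blue points are called genes, larger circles have a spike in 1 library (orange where called), and TFAP4, SLC13A1 and FAM131A are spiked genes with changes of 9.83, −8.20 and −9.20.

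Genes of epithelial adhesion and polarity rose as a group. Of 37 tested, 19 were called higher and 1 lower, with a median change of 1.02 against 0.01 for all genes. One of the 19, MARVELD3, was spiked (748, 38.5 and 25.3 against 2.04, 4.35 and 7.28 CPM), and it lost the call without OVOL2 library 1 (log2 fold change 2.79, adjusted p = 0.236) and without any 1 of the mCherry libraries (adjusted p of 0.079 to 0.107). CDH1, the adherens junction protein E-cadherin, stood at 27.9, 26.5 and 30.3 CPM with OVOL2 and 4.99, 0.768 and 6.47 with mCherry (log2 fold change 2.74, SE 0.43, adjusted p = 0.000472). EPCAM, an epithelial adhesion molecule, stood at 151, 161 and 165 against 35.6, 19.97 and 36.6 CPM (log2 fold change 2.37, SE 0.23, adjusted p = 9.20e-06). LSR, a receptor of tricellular junctions, was at 82.4, 81.3 and 87.2 against 20.9, 19.5 and 22.4 CPM (log2 fold change 1.996, SE 0.14, adjusted p = 1.14e-06). All OVOL2 libraries lay above all mCherry libraries for these 3 genes, which the mCherry cells already expressed at a low level. CLDN3, a claudin of tight junctions, was close to absent in the controls, at 1.59, 4.10 and 0.606 CPM, and reached 38.3, 44.3 and 53.5 with OVOL2 (log2 fold change 4.48, SE 0.76, adjusted p = 0.000802). The polarity gene LLGL2 (log2 fold change 2.19, adjusted p = 0.000645), the sorting adaptor AP1M2 (3.34, adjusted p = 0.000486), CLDN7 (1.40, adjusted p = 0.00144) and the junctional molecule F11R (0.99, adjusted p = 0.00107) rose too. CRB3, a polarity determinant, went from 0, 0 and 0.606 to 5.98, 6.70 and 9.22 CPM, and since its control libraries had 3 counts or fewer no fold is given.

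Fewer members of the epithelial transcription and splicing regulators passed the test. Of 18 tested, 4 were called higher and 0 lower (median 0.73), including OVOL2 itself. ESRP1, which drives the epithelial pattern of alternative splicing, stood at 10.1, 12.2 and 22.6 against 2.72, 0.768 and 2.63 CPM (log2 fold change 2.81, SE 0.44, adjusted p = 0.00049), and its paralog ESRP2 at 8.04, 11 and 7.11 against 2.95, 1.79 and 2.43 CPM (log2 fold change 1.86, SE 0.34, adjusted p = 0.0015). Both groups stood apart for each of them. GRHL2, a master regulator of epithelial genes, had too few counts to be tested, with 2 to 10 in the OVOL2 libraries and 1 to 3 in the mCherry libraries.

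Epidermal genes and keratins rose in part. Of 19 surface protease, keratin and epidermal genes tested, 10 were called higher and 1 lower (median 0.57). KDF1, a regulator of epidermal differentiation, stood at 38.99, 30.8 and 54.2 against 2.27, 4.61 and 2.63 CPM (log2 fold change 3.71, SE 0.27, adjusted p = 1.37e-06). KRT17, a keratin of stressed and basal epithelia, stood at 16.8, 20.5 and 18.2 against 2.04, 0.512 and 0.606 CPM (log2 fold change 4.10, SE 0.63, adjusted p = 0.00041). CTSV, a cathepsin of epidermis and thymus, stood at 182, 218 and 209 against 23.1, 25.9 and 22.6 CPM (log2 fold change 3.09, SE 0.18, adjusted p = 1.60e-07). The OVOL2 libraries were above every control library for all 3. BSPRY (3.12, adjusted p = 8.18e-06) and SFN, which encodes 14-3-3 sigma (1.07, adjusted p = 0.000113), rose, whereas the syndecan SDC1 fell by 2.10 (adjusted p = 5.39e-05). Of the simple keratins, KRT8 rose with a wide spread, at 139, 295 and 409 against 105, 102 and 91.2 CPM (adjusted p = 0.00196), while KRT18 changed by 0.11 (adjusted p = 0.573) and KRT7 by 0.26 (adjusted p = 0.445).

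**Figure D2:**
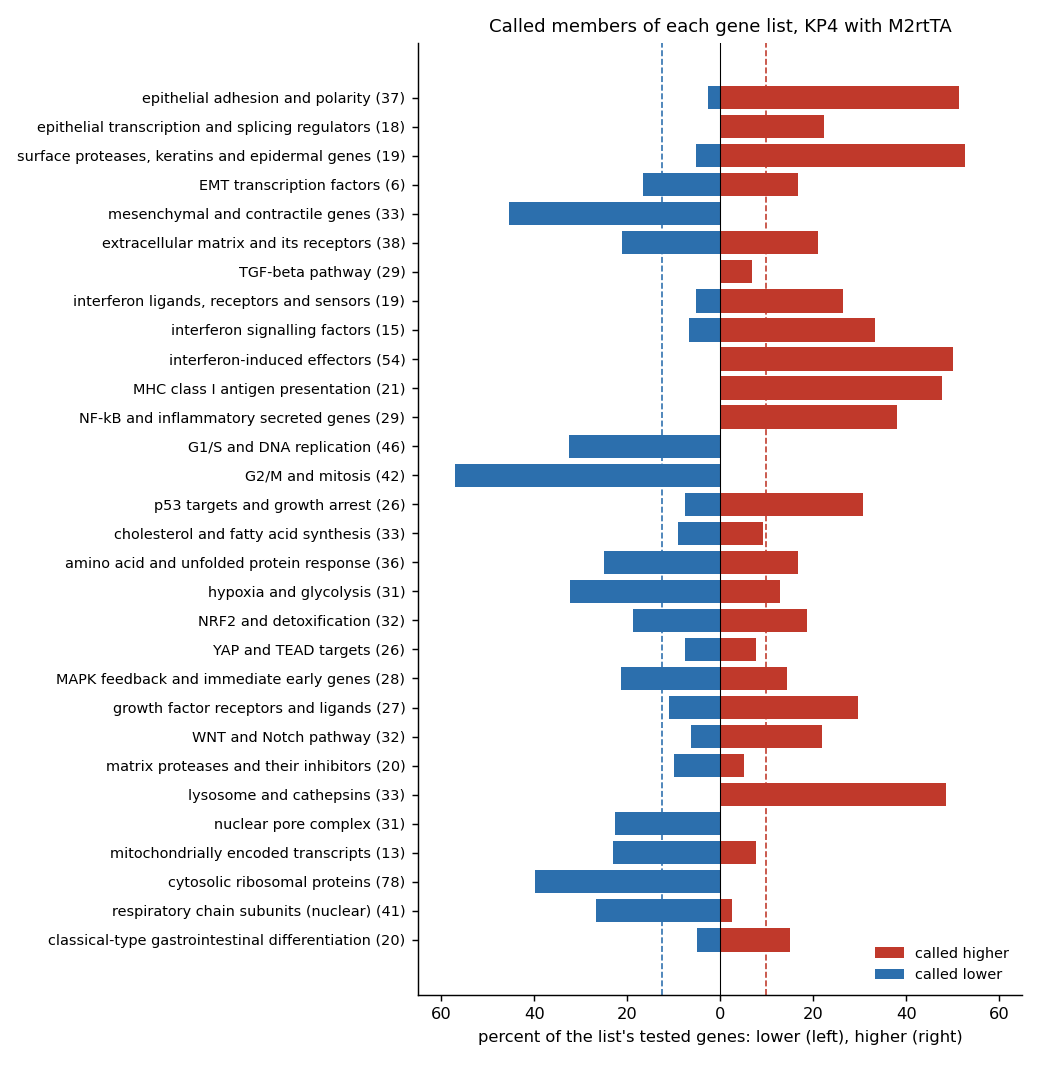
Share of each gene list's tested members that were called higher (red, to the right) or lower (blue, to the left) in KP4 with M2rtTA; the number tested is in brackets and the dashed lines are the shares over all genes, 9.91% and 12.5%. Epithelial, interferon, MHC class I and lysosomal lists extend to the right, and the mesenchymal, cell cycle, glycolysis and ribosomal lists to the left.

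Mesenchymal and contractile genes moved the other way. Of 33 tested, 0 were called higher and 15 lower, with a median change of −0.55. VIM, the intermediate filament protein vimentin, stood at 499, 535 and 492 CPM with OVOL2 and 1594, 1701 and 1452 with mCherry (log2 fold change −1.64, SE 0.09, adjusted p = 1.60e-07). TPM2, a tropomyosin of actin filaments, stood at 154, 132 and 113 against 583, 719.9 and 566 CPM (log2 fold change −2.23, SE 0.15, adjusted p = 8.49e-07). For both, every control library was above every OVOL2 library. FHL2 (−1.29, adjusted p = 4.40e-05), CMTM3 (−1.47, adjusted p = 0.000372), EMP3 (−1.41, adjusted p = 0.000389) and TPM4 (−0.71, adjusted p = 0.000746) fell as well. Other mesenchymal tumour markers were not called: AXL changed by −0.03 (adjusted p = 0.97), CAV1 by −0.28 (adjusted p = 0.0596) and CDH2 by −0.74 (adjusted p = 0.311).

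Of the EMT transcription factors, 6 of 10 had enough counts to be tested. ZEB1, a gene that OVOL2 is known to repress, stood at 5.64, 8.08 and 1.05 against 17.01, 17.2 and 25.3 CPM and fell by 1.94 (SE 0.43, adjusted p = 0.00495). The 3 OVOL2 libraries all lay below the controls and differed among themselves. SNAI1, another repressor of E-cadherin, was higher instead, at 6.16, 5.33 and 11.1 against 3.40, 1.54 and 2.22 CPM (log2 fold change 1.62, SE 0.48, adjusted p = 0.0249). Its call was lost when OVOL2 library 3 (adjusted p = 0.113), mCherry library 2 (adjusted p = 0.0912) or mCherry library 3 (adjusted p = 0.0758) was left out. ZEB2 changed by −0.16 (adjusted p = 0.783), and TWIST1 and SNAI2 had at most 9 counts in a library.

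Matrix genes split. Of 38 genes of the extracellular matrix and its receptors, 8 were called higher and 8 lower (median −0.20). The fibrillar collagens COL5A2 (at 41.04, 34.5 and 45.6 against 129, 137 and 111 CPM, log2 fold change −1.64, SE 0.15, adjusted p = 5.53e-06) and COL3A1 (log2 fold change −2.01, adjusted p = 0.0005) fell, and so did the fibronectin receptor subunit ITGA5 (−1.03, adjusted p = 0.000208) and the collagen cross-linking enzyme LOXL2 (−1.58, adjusted p = 0.000799). COL1A1, the main chain of type I collagen, rose, from 18.4, 8.19 and 12.3 to 37.8, 38.2 and 46.3 CPM (log2 fold change 1.64, SE 0.23, adjusted p = 0.000211). ITGB4, a hemidesmosome integrin, also rose, from 4.99, 6.14 and 3.84 to 24.6, 26.5 and 26.9 CPM (log2 fold change 2.38, SE 0.35, adjusted p = 0.000307). Of 29 TGF-beta pathway genes, 2 were called higher and 0 lower (median 0.17), a smaller share than over all genes. The feedback inhibitor PMEPA1 was one of them (0.83, adjusted p = 0.000336), and leaving out mCherry library 3 left 1 called member.

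Many genes induced by interferon rose, and 1 of them gave the smallest p of the comparison. Of 54 interferon-induced effectors tested, 27 were called higher and 0 lower, with a median change of 0.75. ISG15, a ubiquitin-like protein attached to other proteins after interferon, had the smallest p of all genes. It stood at 543, 581 and 569.6 CPM with OVOL2 and 46.95, 44.5 and 46.1 with mCherry (log2 fold change 3.62, SE 0.13, adjusted p = 1.04e-09). MX1, an antiviral GTPase, stood at 57.8, 58.4 and 61.9 against 6.12, 5.38 and 7.68 CPM (log2 fold change 3.20, SE 0.20, adjusted p = 6.46e-07). IFIT1, which binds viral RNA caps, stood at 25.8, 23.4 and 34.5 against 3.86, 3.07 and 3.84 CPM (log2 fold change 2.94, SE 0.21, adjusted p = 1.13e-06). The lowest OVOL2 library was several times the highest control library for each of these 3 genes, and the libraries of a group lay close together. IFIT3 (3.15, adjusted p = 0.000119), a partner of IFIT1, IFI35 (2.22, adjusted p = 2.77e-05) and OAS2 (2.77, adjusted p = 0.000277), which makes the activator of RNase L, rose too.

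The interferon genes IFI6 and USP18 each had a spike in a control library. IFI6, an antiapoptotic interferon-induced protein, stood at 153, 134 and 159 CPM with OVOL2 and at 419, 11.5 and 16.6 with mCherry, so that 1 control library was above all OVOL2 libraries and the other 2 were far below. Its change was close to 0 over all libraries (adjusted p = 0.998) and 3.42 without mCherry library 1 (adjusted p = 9.03e-06). USP18, the protease that removes ISG15 from proteins, stood at 5.81, 10.3 and 11.6 against 2.04, 1.54 and 27.7 CPM, and its change went from −0.22 to 2.32 without mCherry library 3 (adjusted p = 0.012). Neither was called over all libraries.

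The promoters of interferon genes were read from RefSeq (build GRCh38.p14) at the first start listed for each, and 3 of those with matches upstream of the start are shown, because their shared element is what the transcription complex binds. The motif searched was GAAANNGAA, or TTCNNTTTC on the other strand, in windows from 250 bases before to 50 after the start of transcription. It occurs in 8.29% of all promoters of the table. The following stretches lie upstream of the start, are written 5′ to 3′ on the strand of the gene, and have the matches in capitals. They are at chr1:1013324-1013464 for ISG15, chr10:89392448-89392589 for IFIT1 and chr10:89327782-89327944 for IFIT3, all on the plus strand.
ISG15: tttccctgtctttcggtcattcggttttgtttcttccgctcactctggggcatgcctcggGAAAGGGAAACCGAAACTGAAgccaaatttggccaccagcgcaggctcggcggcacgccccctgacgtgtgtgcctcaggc
IFIT1: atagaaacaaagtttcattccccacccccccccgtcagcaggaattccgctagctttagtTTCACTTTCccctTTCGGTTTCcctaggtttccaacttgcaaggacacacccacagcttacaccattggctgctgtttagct
IFIT3: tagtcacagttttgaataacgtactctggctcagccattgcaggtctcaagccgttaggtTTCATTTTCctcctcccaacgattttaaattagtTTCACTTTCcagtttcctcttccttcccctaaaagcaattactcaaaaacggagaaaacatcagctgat
In ISG15 the 3 matches overlap each other and begin 113, 107 and 101 bases before the start. IFIT1 has 2 matches, at 115 and 102 bases before it, and IFIT3 has 2, at 155 and 121. The 2 matches of MX1 lie after its start, and the windows of IRF9, IFI35, HLA-B, OAS1, HELZ2, HERC6, TRIM25 and PARP9 hold none. A match is a description of the letters and not a measured site. No share is given over the called effectors, since 21 of the 27 (77.8%) had an entry in the table and that is too few for such a count.

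Some genes for sensors and signalling factors of the interferon pathway rose too, and the ligands were hardly detected. The source of the interferon response was not tested. IFNB1 had 0 counts in the OVOL2 libraries and 2 in a control library, and IFNE had none in any. IFNL2 had 0, 3 and 10 counts with OVOL2 and 0 in the controls, and IFNL3 had 8, 1 and 1 against 0. IFNL1 was seen in both groups, with 5, 6 and 1 counts against 1, 3 and 4. All of these ligands were too low to be tested. Counts this low give no change in level. Of 19 ligands, receptors and sensors tested, 5 were called higher and 1 lower (median 0.62). DDX58, the RNA sensor RIG-I, stood at 18.8, 29.9 and 35.3 against 4.08, 2.82 and 4.24 CPM (log2 fold change 2.89, SE 0.29, adjusted p = 1.48e-05). IFIH1, the sensor MDA5, stood at 24.96, 26.6 and 33.7 against 2.04, 2.82 and 7.88 CPM (log2 fold change 2.70, SE 0.38, adjusted p = 0.000227). DHX58, which modulates both, rose by 2.81 (adjusted p = 0.000456), and the RNA-editing enzyme ADAR by 0.62 (adjusted p = 0.00347). The receptor subunits diverged: IFNGR2 rose by 1.00 (adjusted p = 0.00137) and IFNAR2 fell by 1.59 (adjusted p = 4.06e-05).

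Among 15 interferon signalling factors, 5 were called higher and 1 lower (median 0.70). IRF9, the DNA-binding subunit of the interferon-activated complex, stood at 78.1, 73.4 and 76.9 CPM with OVOL2 and 5.44, 8.45 and 7.88 with mCherry (log2 fold change 3.39, SE 0.17, adjusted p = 6.55e-08). Every OVOL2 library was above every control library for IRF9. STAT2, its partner, was not called (0.89, adjusted p = 0.0676). STAT2 did pass with DESeq2 (adjusted p = 0.0436) and without mCherry library 2 (0.0412) or OVOL2 library 1 (0.0352). It also passed when spiked genes were removed before the fit (0.0456), and in no other alternative. IRF7 (2.03, adjusted p = 0.000339), which amplifies the response, and IRF1 (0.92, adjusted p = 0.00141) rose. SOCS3, a feedback inhibitor of cytokine receptors, was lower by 0.73 (adjusted p = 0.016). The SOCS3 call was lost in a fit of only the 2 groups (adjusted p = 0.0536) and without mCherry library 1, mCherry library 2 or OVOL2 library 2 (adjusted p = 0.0618, 0.0647 and 0.0693).

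MHC class I genes, which present peptides to T cells and respond to interferon, rose as well. Of 21 tested, 10 were called higher and 0 lower (median 0.47). HLA-B stood at 80.9, 109 and 88.5 against 16.8, 20.5 and 25.1 CPM (log2 fold change 2.16, SE 0.23, adjusted p = 2.02e-05), and HLA-C at 235, 209 and 249 against 67.6, 81.9 and 85.3 CPM (log2 fold change 1.56, SE 0.14, adjusted p = 6.45e-06). HLA-E rose by 1.49 (adjusted p = 1.10e-05), the light chain B2M by 0.68 (adjusted p = 0.00567) and the peptide editor TAPBPL by 1.45 (adjusted p = 0.000353). The HLA genes are near-identical to one another, so the split of counts between them is uncertain.

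**Figure D3:**
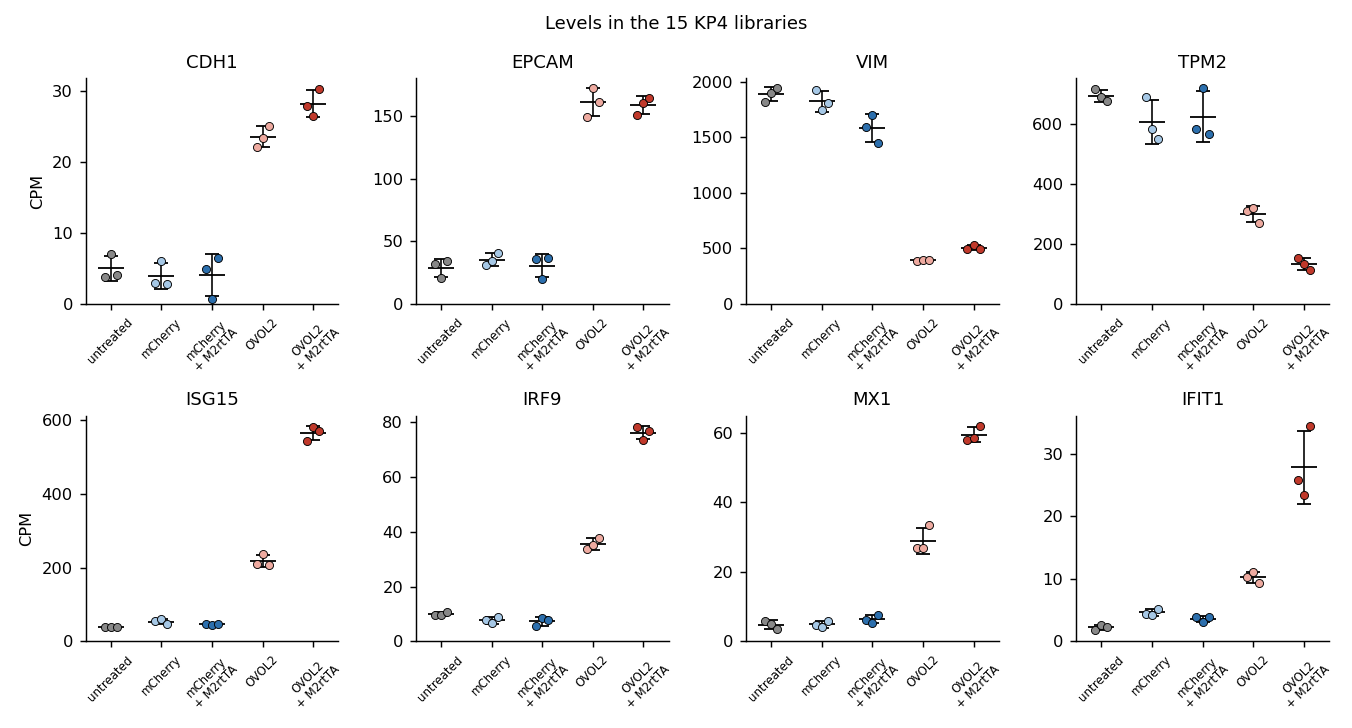
CPM of 4 EMT genes (upper row) and 4 interferon genes (lower row) in the 15 KP4 libraries; points are libraries, the bars mean ± SD (n = 3). For ISG15, IRF9, MX1 and IFIT1 the 3 libraries of OVOL2 with M2rtTA are the highest of the 15, the 3 of OVOL2 alone are next, and the control groups lie together near the bottom.

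The untreated and singly transduced KP4 groups give the background of these values, as the plot of levels in the 15 libraries shows. ISG15 was at 39.3 ± 0.232 CPM (mean ± SD, n = 3) in untreated cells, 53.8 ± 6.51 with mCherry alone, 218 ± 17.05 with OVOL2 alone and 564 ± 19.9 with OVOL2 and M2rtTA. IRF9 was at 10.01 ± 0.691, 7.72 ± 1.23, 35.6 ± 2.07 and 76.1 ± 2.46 in the same order. For both genes the 3 control groups were close to each other, and each OVOL2 group was above them. VIM was lower with OVOL2 alone (392.1 ± 3.31 CPM) than with OVOL2 and M2rtTA (509 ± 22.6), against 1889.6 ± 62.8 untreated.

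Genes of NF-kB signalling and inflammatory secretion rose in part. Of 29 tested, 11 were called higher and 0 lower (median 0.77). The cytokine LIF stood at 57.97, 46.1 and 59.5 against 15.9, 15.1 and 18.6 CPM (log2 fold change 1.72, SE 0.18, adjusted p = 2.17e-05). The pathway's own feedback genes NFKBIA (1.22, adjusted p = 0.00352), NFKB2 (0.77, adjusted p = 0.00533), TNFAIP3 (1.98, adjusted p = 0.00791) and NFKBIE (1.07, adjusted p = 0.0084) rose, as did complement C3 (1.30, adjusted p = 0.00332). The count was 6 in a fit of only the 2 groups, and 6 without OVOL2 library 1 or mCherry library 2.

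Receptors, ligands and immediate early genes moved in both directions. Of 27 growth factor receptors and ligands, 8 were called higher and 3 lower. The count of 11 became 7 without mCherry library 2. PDGFB, a platelet-derived growth factor chain, stood at 21.2, 9.80 and 16.9 against 2.04, 1.28 and 2.63 CPM (log2 fold change 2.97, SE 0.34, adjusted p = 4.50e-05), and the EGF receptor ligand AREG rose by 1.92 (adjusted p = 7.86e-05). FGFR3 (1.82, adjusted p = 0.00108) and the collagen receptor DDR1 (1.33, adjusted p = 0.0013) rose too, and HGF (−0.76, adjusted p = 0.00112) and its receptor MET (−1.16, adjusted p = 0.000358) both fell. In the list of MAPK feedback and immediate early genes, 4 of 28 rose and 6 fell: EGR1 (1.28), JUNB (1.34) and FOSB (2.50) were higher, and JUN (−1.13), ETV5 (−1.996) and SPRY1 (−1.25) lower, with adjusted p from 5.46e-05 (EGR1) to 0.00117 (JUN). EGR4, an immediate early transcription factor that is not on that list, stood at 32.8, 46.6 and 38.2 against 0.681, 0.512 and 2.02 CPM (log2 fold change 5.10, SE 0.48, adjusted p = 7.94e-06), the largest rise among the genes named by size that had no spike.

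WNT and Notch genes leaned upward, with 7 of 32 called higher and 2 lower (median 0.19). WNT9A stood at 26.8, 11.9 and 14.5 against 1.81, 1.28 and 1.82 CPM (log2 fold change 3.41, SE 0.47, adjusted p = 0.000168). The Notch ligand JAG2 stood at 32.8, 30.4 and 38.4 against 2.95, 7.68 and 11.9 CPM (log2 fold change 2.16, SE 0.35, adjusted p = 0.000638), and the receptor NOTCH3 rose by 1.53 (adjusted p = 0.000298). WNT10A was higher by 2.26 (adjusted p = 0.00456), and WNT5B, a ligand of the noncanonical branch, lower by 1.32 (adjusted p = 0.0105). YAP and TEAD targets were close to the background, with 2 higher and 2 lower of 26 (median 0.05). NUAK2 was one that rose (1.98, adjusted p = 0.00012), and the ectonucleotidase NT5E one that fell (−1.34, adjusted p = 0.000773). Classical-type gastrointestinal differentiation genes, the markers of a better-differentiated PDA type, gave 3 higher and 1 lower of 20 (median 0.10), and between 1 and 2 calls when any 1 of the 6 libraries was left out. Over all 6 libraries 20% of this list was called, near the 22.4% of all genes tested.

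Cell cycle genes fell. Of 42 genes of G2/M and mitosis, 24 were called lower and 0 higher, with a median change of −0.67, and all 42 estimates were negative. CCNB1, the mitotic cyclin, stood at 182, 191 and 192 against 351, 353 and 396 CPM (log2 fold change −0.96, SE 0.10, adjusted p = 2.37e-05). AURKA, a spindle kinase, stood at 31.98, 26.3 and 23.2 against 61.9, 83.5 and 67.9 CPM (log2 fold change −1.38, SE 0.14, adjusted p = 2.00e-05). Both were lower in every OVOL2 library than in any control library. DLGAP5 (−1.74, adjusted p = 1.75e-05), PTTG1 (−1.30, adjusted p = 3.60e-05), CCNA2 (−1.06, adjusted p = 3.08e-05) and MAD2L1 (−1.12, adjusted p = 0.000244) fell too. The proliferation marker MKI67 was not called (−0.38, adjusted p = 0.0624). MKI67 did pass with a robust estimate of the spread (adjusted p = 0.0441) and without OVOL2 library 2 (0.041), and in no other alternative.

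The G1/S and DNA replication list gave 15 of 46 lower and 0 higher (median −0.44), or 9 in a fit of only the 2 groups. RRM2, a subunit of ribonucleotide reductase, stood at 114, 114 and 129 against 218, 237 and 189 CPM (log2 fold change −0.85, SE 0.12, adjusted p = 0.000258). PCNA (−0.92, adjusted p = 0.000791), the helicase subunit MCM7 (−0.83, adjusted p = 0.000727) and RFC4 (−1.15, adjusted p = 0.00146) fell. SKP2, the ubiquitin ligase subunit that marks the inhibitor p27 for degradation, fell from 40.1, 39.9 and 37.4 to 7.69, 4.47 and 7.90 CPM (log2 fold change −2.56, SE 0.19, adjusted p = 1.87e-06). MND1, a meiotic recombination factor also made in tumour lines, fell from 90.5, 102 and 88.7 to 23.9, 18.7 and 25.5 CPM (log2 fold change −2.05, SE 0.14, adjusted p = 9.86e-07). Of 26 p53 targets and growth arrest genes, 8 were called higher and 2 lower (median 0.46), and 6 were called without mCherry library 1 or 2. The stress gene GADD45B stood at 45.5, 50.4 and 66.4 against 7.94, 11.3 and 11.9 CPM (log2 fold change 2.37, SE 0.21, adjusted p = 4.69e-06), and the cyclin-dependent kinase inhibitors CDKN1A (0.63, adjusted p = 0.00267) and CDKN1C (1.40, adjusted p = 0.011) rose. The p53 targets RRM2B (−2.46, adjusted p = 0.00184) and FAS (−1.24, adjusted p = 0.00141) fell.

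Several glycolytic enzymes fell, within a list that moved both ways. Of 31 genes of hypoxia and glycolysis, 10 were called lower and 4 higher (median −0.26). LDHA, the lactate dehydrogenase subunit, stood at 226, 149.9 and 182 against 632, 623 and 544 CPM (log2 fold change −1.69, SE 0.14, adjusted p = 2.71e-06). GAPDH stood at 1133, 889 and 1109 against 2648, 2717 and 2675 CPM (log2 fold change −1.36, SE 0.14, adjusted p = 1.52e-05). LDHB (−1.68), PGK1 (−1.22) and ENO1 (−1.18) fell with adjusted p of at most 6.01e-05, the value for ENO1. ADM, adrenomedullin, a hypoxia-induced peptide on the same list, rose instead, from 9.75, 7.68 and 9.50 to 36.6, 29.6 and 42.9 CPM (log2 fold change 2.01, SE 0.25, adjusted p = 7.86e-05). The serine synthesis genes PSAT1 (−1.51, adjusted p = 7.10e-06), PHGDH (−1.28, adjusted p = 8.23e-05) and SHMT2 (−1.38, adjusted p = 2.63e-05) and the asparagine synthetase ASNS (−1.12, adjusted p = 5.74e-05) fell, while the stress transcription factor DDIT3 of the same amino acid and unfolded protein response list rose (1.58, adjusted p = 3.66e-05). That list had 6 of 36 higher and 9 lower.

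Iron storage and redox genes diverged. The list of NRF2 targets and detoxification had 6 of 32 higher and 6 lower (median 0.10). The ferritin chains FTH1 (from 943, 1066 and 989 to 2016, 1947 and 2241 CPM, log2 fold change 1.05, SE 0.11, adjusted p = 2.11e-05) and FTL (0.94, adjusted p = 0.000428) rose, and thioredoxin TXN (−0.94, adjusted p = 8.66e-05), AKR1B1 (−1.58, adjusted p = 0.000476) and the retinal dehydrogenase ALDH1A1 (−1.38, adjusted p = 6.85e-06) fell. In cholesterol and fatty acid synthesis, 3 of 33 rose and 3 fell, or 3 in all without mCherry library 1. The called share of 18.2% was below the 22.4% of all genes tested. The desaturase SCD was among those that rose (1.41, adjusted p = 0.000141) and the farnesyl diphosphate synthase FDPS among those that fell (−1.11, adjusted p = 0.000214).

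Lysosomal genes rose. Of 33 tested, 16 were called higher and 0 lower (median 0.61), among them CTSV, described above. TPP1, a lysosomal peptidase, stood at 135, 131 and 134 against 48.1, 46.8 and 43.3 CPM (log2 fold change 1.53, SE 0.12, adjusted p = 2.04e-06). NEU1, the lysosomal sialidase, stood at 36.8, 42.5 and 41.1 against 10.7, 13.3 and 8.89 CPM (log2 fold change 1.88, SE 0.16, adjusted p = 4.01e-06). The groups did not overlap for either. The autophagy receptor SQSTM1 (0.85, adjusted p = 0.000336) and the cholesterol carrier NPC2 (0.89, adjusted p = 0.000644) rose as well. Among 20 matrix proteases and inhibitors 1 was called higher and 2 lower, a share of 15% against 22.4% of all genes tested. In a fit of only the 2 groups, or without OVOL2 library 2 or mCherry library 2, 1 in all was called. ADAM10 was the higher one, with 2 of its OVOL2 libraries far above the third (23.3, 515 and 215 against 69.6, 43.5 and 26.9 CPM), and its call was lost without any 1 library other than OVOL2 library 1 (adjusted p of 0.0501 without mCherry library 1 to 0.218 without OVOL2 library 2). The OVOL2 and mCherry libraries overlapped for ADAM10.

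Many cytosolic ribosomal protein genes fell, and some nuclear genes of the respiratory chain. Of 78 cytosolic ribosomal protein genes, 31 were called lower and 0 higher (median −0.31), or 18 in a fit of only the 2 groups. RPS4X was the one with the smallest p, at 1901, 1918 and 1924 against 3750.0, 3594 and 3295 CPM (log2 fold change −0.89, SE 0.09, adjusted p = 1.05e-05), and RPL5 (−0.66, adjusted p = 9.64e-05) and RPL41 (−1.13, adjusted p = 0.000293) fell too. Of 41 nuclear genes of the respiratory chain, 11 were called lower and 1 higher (median −0.21), or 6 in all in a fit of only the 2 groups. The complex I subunits NDUFA1 (−1.52, adjusted p = 4.69e-06) and NDUFB10 (−1.79, adjusted p = 5.56e-06) led that list. The 13 mitochondrially encoded transcripts had a median of −0.03, with 1 higher and 3 lower (30.8% called, against 22.4% of all genes tested). In a fit of only the 2 groups 0 were called (1 without mCherry library 1, 2 without mCherry library 2 or OVOL2 library 2).

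AAAS, which encodes the nuclear pore protein aladin, had the smallest p of all genes that fell. It stood at 9.58, 8.42 and 7.64 CPM with OVOL2 and 92.5, 89.9 and 70.5 with mCherry (log2 fold change −3.29, SE 0.16, adjusted p = 6.50e-08), so that no OVOL2 library came near a control library. Of 31 nuclear pore genes, 7 were called lower and 0 higher (median −0.41), or 4 in a fit of only the 2 groups and without OVOL2 library 2 or mCherry library 2, and those next in p, NDC1 (−1.07, adjusted p = 0.000459) and NUP88 (−0.96, adjusted p = 0.0012), fell far less than AAAS. The core of the motif that OVOL proteins bind, CCGTTA or TAACGG on the other strand, was searched in the same promoter windows. It occurs in 3.15% of all promoters of the table, in 4.03% of those of the genes tested and in 6.91% of those of the genes called lower (99 of 1433 with an entry). The share for genes called higher is void, since 76.7% of them had an entry. The letters also occur in a gene that rose: the IFIT3 stretch shown earlier holds ccgtta, outside its capitals. AAAS holds 1 match, 17 bases before the start, shown here because the gene leads the fall, on the minus strand at chr12:53321611-53321687.
AAAS: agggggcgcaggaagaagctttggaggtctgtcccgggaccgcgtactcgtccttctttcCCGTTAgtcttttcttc
The first listed promoters of ZEB1, VIM and TPM2 hold no match to these letters in this window. Nor do those of SKP2, RUVBL2, HSPD1, HMGN3, TUBB, BLVRA, MND1, TMEM158, RGS5, MRPL41 and HEG1, which also fell. The CREM promoter holds 1 match, 214 bases before its start.

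Further genes were among the 15 of smallest p in each direction. Of those higher, ZNF165, a zinc-finger gene, stood at 48.6, 54.5 and 40.6 against 9.53, 8.96 and 10.7 CPM (log2 fold change 2.29, SE 0.15, adjusted p = 8.49e-07). APOE, an apolipoprotein, stood at 335, 306 and 347 against 67.8, 46.3 and 42.6 CPM (log2 fold change 2.65, SE 0.23, adjusted p = 4.57e-06). The transmembrane mucin MUC3A (3.00), the secreted glutathione peroxidase GPX3 (3.34), the kinase LMTK3 (3.08) and the citrullinating enzyme PADI2 (1.41) rose with adjusted p of at most 4.63e-06, the value for MUC3A. Of those lower, TUBB, a beta-tubulin with near-identical paralogs, stood at 606, 637 and 636 against 1635, 1643 and 1689.7 CPM (log2 fold change −1.40, SE 0.10, adjusted p = 1.13e-06). RGS5, a regulator of G protein signalling, stood at 14.4, 9.45 and 9.74 against 61.7, 65.8 and 69.1 CPM (log2 fold change −2.54, SE 0.18, adjusted p = 1.03e-06). HMGN3, a nucleosome-binding protein, stood at 13.00, 10.7 and 8.95 against 90.7, 122 and 94.6 CPM (log2 fold change −3.23, SE 0.23, adjusted p = 1.13e-06). All 3 were lower in each OVOL2 library than in any control. BLVRA, biliverdin reductase (−2.56), TMEM158 (−2.41), the AAA-type ATPase RUVBL2 (−1.68), the chaperonin HSPD1 (−1.48), MRPL41 of the mitochondrial ribosome (−1.81), the cAMP-responsive factor CREM (−1.96) and the prefoldin subunit PFDN2 (−1.92) completed the 15, with adjusted p up to 2.44e-06 for PFDN2. By size, SLFN11, which blocks stressed replication forks, fell by 2.89 (adjusted p = 8.52e-06), STEAP1 by 2.78 (adjusted p = 2.05e-05), SDHAF3 by 2.83 (adjusted p = 0.000655) and ADGRA3 by 2.70 (adjusted p = 4.01e-06). KLRC2, whose counts are hard to separate from those of its near-identical neighbours, fell by 3.44 (adjusted p = 4.15e-06).

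The effect of OVOL2 was also compared with that in KP4 without M2rtTA, from separate libraries. The difference of the 2 effects was called for 195 of 13662 genes (1.43%), 57 with a more positive effect with M2rtTA and 138 with a more negative one. With 1 library left out the count was 78 (without library 3 of mCherry alone) to 177, and it was 455 with DESeq2, 116 in a fit of the groups compared and 114 with no filter. ISG15 changed by 3.62 with M2rtTA and by 2.02 without it, a difference of 1.60 (SE 0.16, adjusted p = 0.00095). The difference was 1.79 for IFIT1 (adjusted p = 0.0114) and 1.18 for IRF9 (adjusted p = 0.0239). Of the 54 interferon-induced effectors, 13 were called higher without M2rtTA, where 3.26% of all genes were, and 2 differed between the arms. Of the 37 epithelial adhesion genes, 2 differed between the arms: LSR changed by 1.14 and CLDN1 by 1.68 without M2rtTA, against 1.996 and 0.52 with it. CDH1 and EPCAM were not shown to differ: CDH1 changed by 2.56 without M2rtTA and differed by 0.18 (SE 0.61, adjusted p = 0.923), and EPCAM by 2.18 and 0.18 (SE 0.31, adjusted p = 0.83). VIM fell more without M2rtTA (−2.22), a difference of 0.58 (adjusted p = 0.0389). MRPL41, RUVBL2, CREM and PFDN2, which fell with M2rtTA, changed by 0.01, −0.35, −0.44 and −0.37 without it, with adjusted p for the difference of at most 0.00496 (PFDN2). The ribosomal protein gene RPS4X changed by 0.02 without M2rtTA and differed by −0.91 (adjusted p = 0.00496), and the collagen gene COL5A2 by −0.17 and −1.47 (adjusted p = 0.00496). The OVOL2 level itself changed by −0.02 without M2rtTA (adjusted p = 0.994), and the difference was not called (3.10, SE 1.32, adjusted p = 0.282).

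The same contrast was made in PANC1 and PK45H, 2 other transduced PDA lines, in 1 fit of 45 libraries. The KP4 effect differed from the mean of the other 2 lines for 435 of 14943 genes (2.91%), 215 above and 220 below. With 1 library left out the count was 279 (without OVOL2 library 2 of KP4) to 410, and it was 210 in a fit of the groups compared. Of all lists, the interferon-induced effectors had the most members with the KP4 effect above. Of 58 interferon-induced effectors tested in that fit, 29 were called higher in KP4, 3 in PANC1 and 6 in PK45H, where 9.26%, 6.00% and 7.23% of all genes were called higher. For 17 of them KP4 differed from the other lines, in all 17 with the KP4 effect above, and 16 of the 17 were called in KP4 itself. The same KP4 libraries picked the 17 and gave those calls, so the 16 are a description only. The exception was IFITM2, which changed by −0.29 in KP4 (adjusted p = 0.48) and fell in PANC1 (−2.92, adjusted p = 2.10e-10) and PK45H (−1.44, adjusted p = 8.58e-05).

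**Figure D4:**
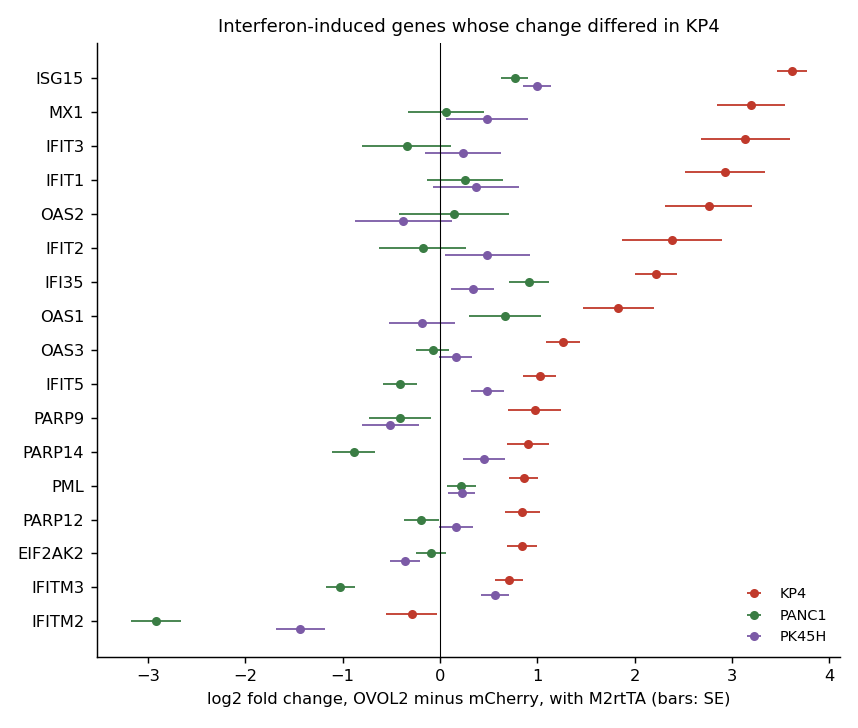
Log2 fold change of OVOL2 against mCherry, with M2rtTA, in KP4, PANC1 and PK45H for the 17 interferon-induced genes whose KP4 effect differed from the mean of the other lines (adjusted p under 0.05); points are estimates from the fit of 45 libraries and bars their SE. KP4 lies to the right of both other lines for every gene shown, from ISG15 at 3.61 to IFITM2 at −0.29.

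The change of ISG15 was 3.61 in KP4, against 0.77 in PANC1 and 1.00 in PK45H, a difference of 2.73 (SE 0.18, adjusted p = 6.10e-13). Its level with OVOL2 and M2rtTA was 553 ± 19.1 CPM in KP4 against 100.4 ± 19.2 in PANC1 and 91.95 ± 8.96 in PK45H (mean ± SD, n = 3, scaled over the 3 lines). With mCherry and M2rtTA it was 45.2 ± 1.22, 59.1 ± 10.9 and 46.1 ± 1.76. MX1 changed by 3.19, 0.06 and 0.48 in the same order of lines (adjusted p of the difference 0.000106), and IRF9 by 3.38, 0.97 and 1.16 (adjusted p 8.92e-06). The control levels of ISG15 lay within a narrow range in the 3 lines, and the level with OVOL2 was several times higher in KP4. By contrast CDH1 (0.33, SE 0.46, adjusted p = 0.803) and EPCAM (0.15, SE 0.22, adjusted p = 0.807) were not shown to differ between lines, and 3 of 37 epithelial adhesion genes did.

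Further genes differed between the lines in other ways. PADI2 rose in all 3 lines, least in KP4 (1.40) and more in PANC1 (3.64) and PK45H (2.80), which gave a negative difference of −1.82 (adjusted p = 5.11e-06). RGS5 fell in KP4, from 64.6 ± 2.98 to 10.96 ± 2.72 CPM (mean ± SD, n = 3). It was low in both groups of the other lines, at 5.34 ± 1.58 with mCherry and 5.16 ± 1.30 with OVOL2 in PANC1 and at 5.74 ± 1.29 and 5.59 ± 0.365 in PK45H. DIRAS3, a small GTPase and tumour suppressor, fell from 66.2 ± 18.2 to 10.3 ± 2.71 CPM in KP4, stood at 3.63 ± 0.894 in PANC1 and 4.01 ± 1.46 in PK45H with mCherry, and had a difference of −3.07 (adjusted p = 0.000185).

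Single-library spikes were examined over all genes. Among all 25421 symbols, tested or not, the OVOL2 group had 140 spikes and the mCherry group 115. Of the genes tested, 215 (1.57%) had a spike in either group. Of these, 44 were called (29 higher and 15 lower), which is 20.5% of the spiked genes, against 22.4% of the genes without a spike. Spiked genes made up 1.44% of all calls, and 40 of the 44 lost the call without the library that held the spike. A gene no longer tested in that refit was counted as lost. Of all 3057 calls, 2224 to 2391 were kept when 1 library was left out. The largest spike was FAM131A, with 209306 counts in mCherry library 1, 4.38% of that library, against 66 and 86 in the other mCherry libraries and 171, 178 and 78 with OVOL2. Its change of −9.20 (adjusted p = 0.00933) became 0.67 without that library (adjusted p = 0.0524). TFAP4 had 168904 counts in OVOL2 library 1 against 576 and 71 in its mates, and its change of 9.83 became 2.47 (adjusted p = 0.108). SMAD9 and IL1RAPL1 each had a spike in OVOL2 library 2, of 4060 and 3204 counts, and their changes of 6.68 and 5.66 became 0.01 and −0.43. KIAA0930, with 26589 counts in mCherry library 1, went from −4.99 to 1.18. RPL13AP5, SLC4A1 and CNOT6L, also among the 8 largest ratios, were not called.

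**Figure D5:**
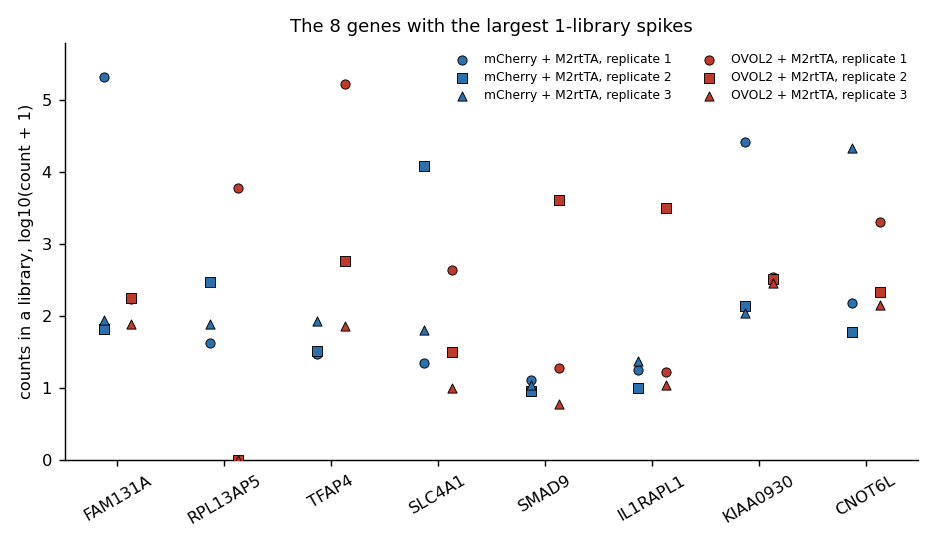
Counts, as log10(count + 1), of the 8 genes with the largest ratio of the highest to the next library in either group, in the 3 mCherry (blue) and 3 OVOL2 (red) libraries of KP4 with M2rtTA; the marker shape gives the replicate. For each gene 1 library stands far above the other 2 of its group, such as mCherry library 1 for FAM131A (209306 counts) and OVOL2 library 1 for TFAP4 (168904).

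The spikes touched the ranking by size far more than the ranking by p. Of the 20 genes taken by size of change, 8 were spiked: TFAP4, IBA57, MARVELD3, TIAF1 and SDK2 among those higher and SLC13A1, NUDT6 and GABBR2 among those lower. NUDT6 overlaps FGF2 on the other strand, so its counts may in part be those of its partner. Of the 30 genes taken by p, 0 were spiked. A spike widens the spread within its group, which by itself keeps a gene from the smallest p. Without the spiked genes 3013 calls were left. When genes spiked in any KP4 group were removed before the fit, an alternative chosen after seeing the data, 3141 of 13288 genes were called, and 2949 of the 3011 calls that could be shared were shared. ISG15, IRF9, CDH1, EPCAM, VIM and AAAS had no spike.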

How the data were processed

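Counts per gene symbol, deposited by the authors as whole numbers, were used for 51 PLATE-seq libraries and 25421 symbols. Per the submitters' processing notes kallisto 0.44.0 and GRCh38 were used; their role, the annotation, any rounding of estimated counts and the handling of molecular identifiers are not given in the sources used here. 0 value columns lacked a sample. The 15 KP4 libraries in 5 groups were fitted together with edgeR 4.0.16 in R 4.3.3 (filterByExpr, TMM, quasi-likelihood test, two-sided, Benjamini-Hochberg over all genes tested, threshold 0.05). KP4, PANC1 and PK45H were fitted jointly (45 libraries, 15 groups) for differences between lines. The pipeline was tested on simulated data. Alternatives included DESeq2 1.42.0. The named genes were 8 fixed genes, the 15 of smallest p and the 10 of largest change in each direction (mean of at least 5 CPM, groups not overlapping), up to 6 called members of a list (marginal ones are given by count), 8 per difference and direction and 8 spikes; a few others (CLDN7, F11R, KRT7, KRT18, AXL, CAV1, CDH2, ZEB2, STAT2, MKI67, IFI6, USP18 and those of the added lists) were chosen after their values were seen. Members and lists were chosen with earlier results of these data known. Promoters came from RefSeq, 80.2% of tested genes having an entry, older symbols included. Among the 6 libraries compared, no 2 of the same group agreed within sampling noise. Same-numbered libraries of these 2 groups did not deviate together, and the other groups were not checked for this. Counts without strand cannot separate overlapping genes. Some genes that the rule names are not reported here.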

Additional observations from a re-analysis of the deposited data

Results flagged for a closer look

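The effect of OVOL2 in KP4 differed between the arms with and without M2rtTA for 195 genes, by a test of the difference itself. Where the effect was more positive with M2rtTA, the difference (log2, with minus without) was 1.60 for ISG15, 3.73 for TUBB4A, 1.16 for APLP1, 1.31 for ASMTL, 1.10 for PIANP, 1.79 for IFIT1, 2.85 for LOC730098, 1.14 for SOX2, 1.18 for IRF9 and 0.58 for VIM. SOX2, a stem cell factor, was not called with M2rtTA (0.30, adjusted p = 0.13) and changed by −0.84 without it (adjusted p = 0.00218). TUBB4A rose with M2rtTA (1.22) and fell without it (−2.51). Where the effect was more negative, it was −1.83 for MRPL41, −1.33 for RUVBL2, −1.41 for ALDH1A1, −1.53 for CREM, −1.55 for PFDN2, −0.91 for RPS4X, −1.47 for COL5A2 and −1.41 for MND1. Of the 195 genes, 1 had a spike in a compared or other KP4 group. For scale, the KP4 fit tested 13662 genes, and 13288 once genes spiked in any KP4 group were removed.

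The KP4 effect differed from the mean of PANC1 and PK45H for 435 genes, of which 26 had a spike in a KP4 group. The share of such spiked genes among all 14943 tested was not counted, so the 26 cannot be set against it. Above the other lines (log2 difference) were ISG15 at 2.73, S100A16 at 2.65, the desaturase SCD at 1.66, the mitochondrial protein CHCHD10 at 1.43, GADD45B at 1.93, IRF9 at 2.31 and EPDR1 at 1.93. A more positive effect was not always a larger rise. EPDR1 fell least in KP4, with means of 8.36 CPM under OVOL2 and 14.7 under mCherry. Its PANC1 means were 11.7 and 80.6 CPM, and its PK45H means 15.2 and 97.5. S100A16 was also lower under OVOL2 outside KP4. Its PANC1 means were 9.69 and 35.2 CPM, its PK45H means 42.5 and 158, and its KP4 means 7.27 and 4.30. Below the other lines were RGS5 at −2.50, PADI2 at −1.82, the polyamine enzyme ODC1 at −1.11, MRPS6 at −1.56, THSD7A at −2.09, the uridine phosphorylase UPP1 at −1.27, SUSD2 at −2.90 and DIRAS3 at −3.07. PANC1 and PK45H did not always move alike. Mean SUSD2 went from 7.87 to 235 CPM with OVOL2 in PANC1 and from 1.86 to 4.30 in PK45H. Mean THSD7A went from 16.4 to 11.1 CPM in PANC1 and from 4.07 to 20.6 in PK45H. S100A16 and SUSD2 were not called in KP4 itself (0.77 and 0.16, adjusted p = 0.0913 and 0.769 in the fit of KP4 alone).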

How the results depend on the processing

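The count of 3057 changed genes was between 2190 (only the 2 groups) and 3165 (DESeq2) under the alternatives run, and 2400 to 2629 when 1 library was left out. With the replicate number as a block it was 2861. Same-numbered libraries did not deviate together (correlations −0.09, −0.02 and −0.17), so the block is given here only. The count of genes differing between arms was 195, and became 114 with no filter, 455 with DESeq2, 116 in a fit of the groups compared, 112 with the replicate block and 78 (without KP4 mCherry replicate 3) to 177 when 1 library was left out. The lower values came without mCherry replicate 2 (96) or 3, OVOL2 replicate 1 (117), 2 (118) or 3 (84), mCherry + M2rtTA replicate 1 (99) or 2 (118) and OVOL2 + M2rtTA replicate 2 (98) or 3 (127). The count differing between lines was 435, and became 210 in a fit of the groups compared and 279 (without OVOL2 + M2rtTA replicate 2) to 410 when 1 library was left out, with 283 and 281 without mCherry + M2rtTA replicate 1 and 2. The OVOL2 change of 3.08 was 3.09 (adjusted p = 0.0602) in a fit of only the 2 groups, 2.83 (adjusted p = 0.0618) with the replicate block and 1.92 to 4.30 when 1 library was left out; under thinning or a mean count of at least 10 it was not tested. The sign of many spiked genes turned without the library that held the spike. Among those refitted with each library left out, the changes ranged from −9.79 to 0.67 for FAM131A, −0.43 to 6.23 for IL1RAPL1, −5.58 to 1.18 for KIAA0930, −0.56 to 3.42 for IFI6 and −0.72 to 2.32 for USP18. RLE scaling moved the median change of all genes by 0.01, and no alternative by more than 0.04. Genes with few counts, OVOL2 and the interferon ligands among them, are limited by depth.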

Other observations

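Groups outside the lists above were picked after their values had been seen, so their counts are descriptions. Protein folding factors were lower with OVOL2: of 19 chaperonin, prefoldin and mitochondrial chaperone genes, 14 were called lower and 0 higher (median −0.97). CCT3, a subunit of the cytosolic chaperonin that folds actin and tubulin, stood at 42.1, 40.05 and 41.9 against 132, 125 and 107 CPM (log2 fold change −1.55, SE 0.14, adjusted p = 5.16e-06). CCT4 (−1.36), CCT5 (−1.20), CCT7 (−1.36) and TCP1 (−0.99) fell with adjusted p of at most 3.10e-05, the value for TCP1. Of 77 mitochondrial ribosomal protein genes, 31 were lower and 1 higher (median −0.33), with MRPL22 at 78.3, 78.2 and 78.2 against 225, 218 and 203 CPM. Of 46 proteasome genes, 18 were lower and 0 higher (median −0.27), led by the regulatory subunit gene PSMD10 (−1.39, adjusted p = 0.000119).

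Apolipoprotein and cholesterol efflux genes were higher: of 11 tested, 6 were called higher and 0 lower (median 1.09). APOE was described above. APOC1, its chromosomal neighbour, stood at 33.2, 19.4 and 23.96 against 5.44, 7.94 and 10.3 CPM (log2 fold change 1.69, SE 0.35, adjusted p = 0.00333), and the phospholipid transfer protein PLTP at 293, 212 and 222 against 101, 112 and 129 CPM (log2 fold change 1.09, SE 0.17, adjusted p = 0.000404). Tubulin genes were split, with 5 of 11 higher and 3 lower (5 called in all without mCherry library 2, OVOL2 library 1 or OVOL2 library 3), and of 5 transmembrane mucin genes tested MUC3A alone was called.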
